A study of Mus musculus with 16 samples.

Results

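Alveolar type II cells, primary cells of mouse lung (strain C57BL/6), were compared after 6 h in hyperoxia (85% O2) and after 6 h in normoxia (21% O2), with 4 arrays per oxygen level, which are 8 of the 16 arrays of the series. The other 8 arrays hold the same oxygen levels at 24 h and show how the genes that moved at 6 h stood later. They also enter the shared estimate of the spread behind every SE and p at 6 h. The filter for tested genes and the choice of probe used them too. Arrays were chosen by their labelled oxygen level and time, and no measured value entered the choice. The labels give the strain, tissue and cell type of every array, and no age or sex of the animals, pooling or genetic change. Each array measured Cy3-labelled RNA on a one-colour mouse expression array. The labels do not say whether the 4 arrays of a group came from separate animals or cultures, so p-values measure the spread between these arrays, which may be technical. All 8 arrays lay on 1 slide, normoxia in the first row and hyperoxia in the second, so oxygen and slide row cannot be told apart.

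Alveolar type II cells make and store lung surfactant, are cuboidal cells of the alveolar wall and serve as progenitors of the flat type I cells. High oxygen raises the output of reactive oxygen species, which can damage DNA, lipids and proteins. Damaged DNA activates the kinase ATM and the transcription factor p53, which is held low by its inhibitors MDM2 and MDM4 and, once stable, switches on genes of cell cycle arrest, repair and death. Mdm2 is itself such a gene, which closes a feedback loop. Genes of the mitotic apparatus and the replication-dependent histones are transcribed mainly in cycling cells, and their mRNA falls when cells leave the cycle.

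Values are log2 signal relative to the 75th percentile of each array, so a difference of 1 is 2-fold. The 75th percentile itself was a signal of 899 to 1021 on these arrays, no spot was saturated, and 62.2% to 69.0% of probes were well above background. A total of 25401 genes were tested, and "rose" and "fell" are used for a limma adjusted p under 0.05. Each log2 fold change is given ± SE, with 4 arrays per group. The main axis of variation among the 8 arrays, with 28.1% of the variance, did not part the oxygen groups: hyperoxia replicate 3 (37.9) and normoxia replicate 3 (27.8) lay at one end and hyperoxia replicate 2 (-29.4) at the other. The next axis, with 17.3%, held the 4 normoxia arrays at 1.09 to 28.0 and the 4 hyperoxia arrays at -24.1 to -2.88.

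The labelled cell type was checked against its markers. Of 14 type II marker genes 13 were tested, among them the surfactant protein genes Sftpa1, Sftpb, Sftpc and Sftpd and the lamellar body transporter Abca3, all well above background on the 8 arrays. The phosphate transporter gene Slc34a2 was well above background on none of them. Sftpc, which encodes surfactant protein C, read 4.10, 4.45, 3.48 and 3.50 on the 4 normoxia arrays and 4.29, 4.96, 4.56 and 3.57 on the 4 hyperoxia arrays, and the groups overlapped (difference 0.46 ± 0.43, limma adjusted p = 0.913). The log2 of the summed signal of the type II markers was 6.67 to 7.03 in normoxia and 6.81 to 7.33 in hyperoxia. Markers of other cell types were also present: all 10 fibroblast and smooth muscle markers were tested, and their summed level was 9.85 to 10.1 on normoxia arrays and 9.77 to 10.2 on hyperoxia arrays. All 10 macrophage markers were tested too, with 4.71 to 4.90 against 4.70 to 5.19, and all 4 mesothelial markers, with 6.71 to 7.11 against 6.68 to 7.27. Of 8 ciliated markers 6 were tested, with 7.49 to 7.60 against 7.38 to 7.69, and of 8 type I markers 7, with 6.00 to 6.35 against 6.01 to 6.31. The fibroblast and ciliated sums lay above that of the type II markers. Lists are read by different probes, so these sums do not settle which cells made up the samples. No member of the 11 marker lists rose or fell, and the summed levels of every list overlapped between the oxygen groups. In bulk RNA such as this, fewer cells of a type and less RNA per cell cannot be told apart.

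After 6 h of hyperoxia 60 genes were higher (0.236% of genes tested) and 23 were lower (0.0905%). The risers included genes of the p53 response, such as the p53 inhibitor gene Mdm2, the cyclin-dependent kinase inhibitor gene Cdkn1a and the secreted stress cytokine gene Gdf15. The lower genes held the second p53 inhibitor gene Mdm4, linker and core histone genes, and a small set of mitotic genes. In 4 risers and 1 lower gene one oxygen group was not well above background on any array, so that their change has only a lower bound. For the bound the mean of the brighter group was set against the mean, over the dimmer group's arrays, of the gene's own signal or, where higher, of the faintest signal still well above background there. Among the other 56 risers the log2 change was 0.33 to 2.03, and among the other 22 lower genes its size was 0.27 to 1.04. The 2.03 is that of Kbtbd12. Like the transcript chr10:33707021-33709881_R (1.07), Kbtbd12 was well above background on 1 normoxia array only. Both are counted below at these values. With the 5 genes at their bounds the median size was 0.72 among the risers and 0.61 among the lower genes, and 16 risers and 3 lower genes changed at least 2-fold. All 83 had hyperoxia arrays that did not overlap the normoxia arrays, as had 4.32% of all genes tested. The median log2 fold change over all genes was 0.01, with 13659 of the 25401 genes above 0 and 11742 below.

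These counts moved with single arrays. Without hyperoxia replicate 3, 132 genes were higher and 61 lower, whereas without normoxia replicate 4 the counts were 33 and 11. Leaving out normoxia replicate 1 gave 37 higher genes, and leaving out hyperoxia replicate 4 gave 13 lower genes. With each array left out in turn 30 of the 60 risers and 10 of the 23 lower genes were called every time. With the spread taken from the 8 arrays of 6 h alone, 21 were higher and 8 lower, and with array weights 303 and 263. No gene called in the full comparison changed sign under any of these settings.

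**Figure D1:**
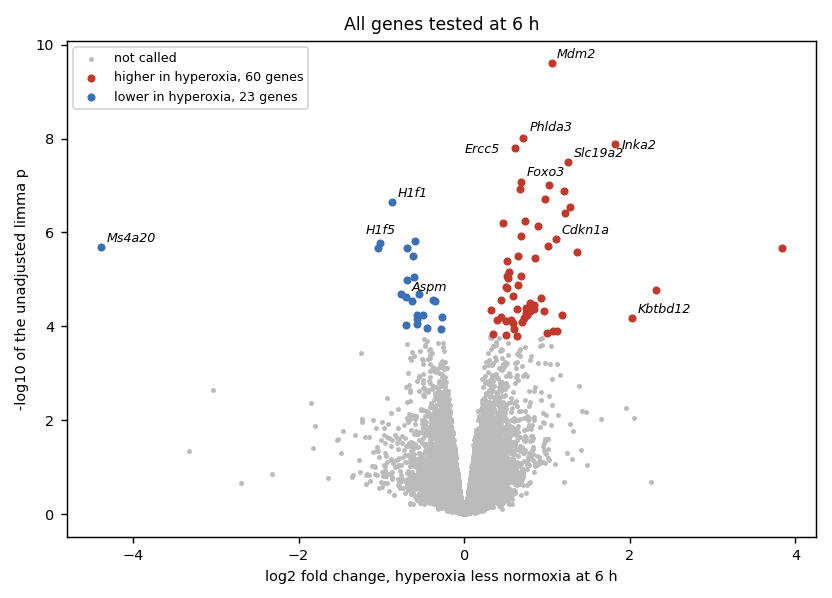
Log2 fold change at 6 h (hyperoxia less normoxia, x axis) against -log10 of the unadjusted limma p (y axis) for the 25401 genes tested, 1 point per gene, with called genes in colour. The 56 higher genes well above background on at least 1 array of each group spread from 0.33 to 2.03. The 22 such lower genes spread from -1.04 to -0.27, and Mdm2 has the smallest p. The highest of these values, 2.03, is that of Kbtbd12, which was well above background on 1 normoxia array only. A further 5 called genes, Ms4a20 among them, were not well above background in one group. Their place on the x axis is not a measured size.

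The regulators of p53 moved in opposite directions. Mdm2, whose product marks p53 for degradation, read 4.91, 4.99, 4.91 and 4.81 in normoxia and 5.84, 6.04, 6.07 and 5.89 in hyperoxia. Its lowest hyperoxia array lay well above its highest normoxia array, and the gene rose 2.08-fold (log2 1.05 ± 0.07, limma adjusted p = 6.3e-06), the smallest p of the comparison. Mdm4, whose product binds p53 and blocks its activity, read -2.04, -1.97, -2.00 and -1.95 in normoxia and -2.92, -2.83, -2.43 and -2.55 in hyperoxia. The normoxia arrays lay close together and all 4 hyperoxia arrays lay below them, and the gene fell 1.62-fold (log2 -0.69 ± 0.09, limma adjusted p = 0.00219). A second Mdm4 probe had a log2 fold change of -0.24 and was not called. Ccng1, which encodes cyclin G1, a partner of the phosphatase that acts on MDM2, rose by 0.51 ± 0.09. Trp53, which encodes p53 and is controlled mainly at the protein level, had a log2 fold change of -0.02 ± 0.21 with overlapping groups. Of the 13 regulators tested Mdm2 and Ccng1 rose and Mdm4 fell. The phosphatase gene Ppm1d was at 0.20 ± 0.10 and the related factors Trp63 and Trp73 at 0.01 ± 0.09 and 0.09 ± 0.07, none of them called. On the array's mm9 coordinates the Mdm2 probe lies at chr10:117126010-117126069 and the Mdm4 probe at chr1:134888407-134888466, both on the minus strand; the gene models of that build were not used here.

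**Figure D2:**
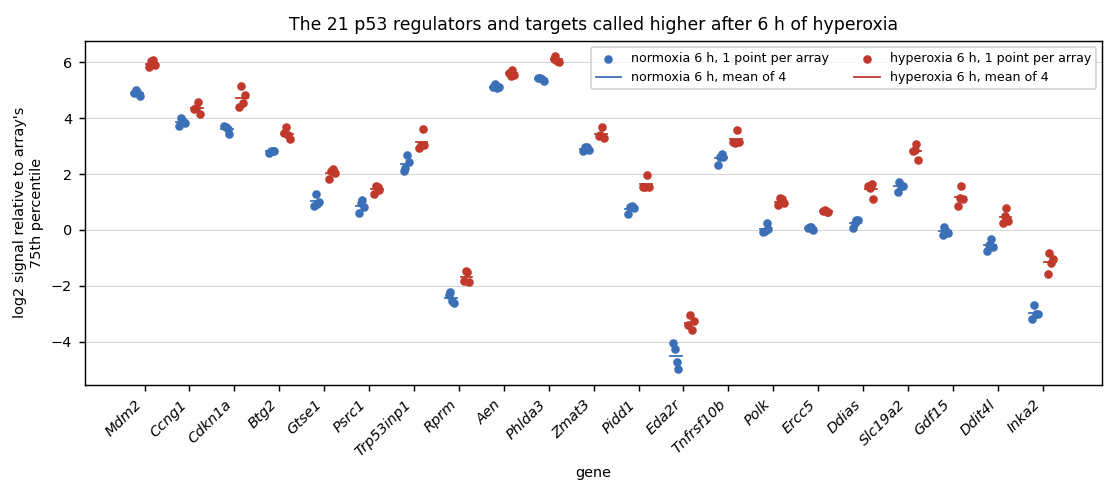
Log2 signal, scaled by the array's 75th percentile (y axis) of the 21 p53 regulators and targets that rose, 1 point per array and a line at the mean of 4, normoxia in blue and hyperoxia in red. In each gene the 4 hyperoxia arrays sit above the 4 normoxia arrays; levels are not comparable between genes, since each gene is read by its own probe.

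Of 82 tested genes on the lists of p53 regulators and targets 21 rose and 1 fell, beside 0.236% and 0.0905% of all genes. Their median log2 fold change was 0.25, and 33 of the 82 had hyperoxia arrays wholly above the normoxia arrays, as had 2.31% of all genes. The lists were chosen with earlier results of these data known, so these counts describe the comparison and add no independent support for it. Of the 21 risers 15 were called with each of the 8 arrays left out in turn, and 11 when the spread was taken from the 8 arrays of 6 h alone. Among the 8 comparisons that left out 1 array, Btg2 and Psrc1 lost the call in 6 and Ccng1 and Eda2r in 5. Rprm lost it in 4 and Trp53inp1 in 3. Cdkn1a was not among those 11 (limma adjusted p = 0.0588), nor was the fall of Mdm4 (limma adjusted p = 0.108).

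Among targets of cell cycle arrest 7 of 13 rose, beside 0.236% of all genes, with a median of 0.51. Cdkn1a, which encodes the kinase inhibitor p21, read 3.73, 3.70, 3.61 and 3.43 in normoxia and 4.39, 5.15, 4.55 and 4.84 in hyperoxia. The hyperoxia arrays were more scattered than the normoxia arrays but none reached down to them, and the rise was 2.16-fold (log2 1.11 ± 0.14, limma adjusted p = 0.00195), with all 3 probes of the gene called. Gtse1, which encodes a microtubule-binding protein that moves p53 out of the nucleus, read 0.86, 1.30, 0.92 and 1.00 in normoxia and 1.81, 2.11, 2.19 and 2.05 in hyperoxia. That is a rise of 2.03-fold (limma adjusted p = 0.00035) in a gene that is otherwise known for its expression late in the cell cycle. Btg2, an antiproliferative gene, rose by 0.64 ± 0.11, and Trp53inp1, whose product activates p53 under stress, by 0.80 ± 0.14. Rprm, a G2 arrest gene, rose by 0.75 ± 0.13, and Psrc1, which encodes a spindle-associated protein, by 0.60 ± 0.11. Other arrest targets gave values near those of the median gene: Gadd45a was at 0.09 ± 0.14, Sfn at 0.00 ± 0.18 and Plk2 at 0.09 ± 0.10, none of them called.

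Among targets of cell death 6 of 18 rose, beside 0.236% of all genes, with a median of 0.42. Phlda3, which encodes an inhibitor of the survival kinase AKT, read 5.45, 5.43, 5.39 and 5.33 in normoxia and 6.13, 6.21, 6.07 and 6.02 in hyperoxia, a rise of 1.63-fold with little scatter in either group (limma adjusted p = 9.95e-05). Pidd1, whose product assembles the platform that activates caspase-2, rose by 0.89 ± 0.11, with hyperoxia replicate 3 (1.97) above the other three, which lay at 1.54 to 1.55. Of the death receptor genes Eda2r rose by 1.18 ± 0.21 and Tnfrsf10b, the mouse TRAIL receptor, by 0.69 ± 0.10. The nuclease gene Aen rose by 0.47 ± 0.06 and the RNA-binding protein gene Zmat3 by 0.52 ± 0.08. Classical death genes did not pass the threshold: Bbc3 (PUMA) was at 0.50 ± 0.12 with no overlap (limma adjusted p = 0.107), Pmaip1 (NOXA) at 0.48 ± 0.26, Bax at 0.29 ± 0.20 and the death receptor gene Fas at 0.37 ± 0.21, and the p of each of these 3 was larger. Over the list of BCL2 family and caspase genes 0 of 23 were called.

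Among targets of DNA repair and synthesis 3 of 12 rose, beside 0.236% of all genes, and the median was -0.02. Polk, which encodes the translesion polymerase kappa, read -0.06, -0.04, 0.26 and 0.02 in normoxia and 0.88, 1.14, 1.10 and 0.95 in hyperoxia, and rose 1.96-fold (limma adjusted p = 0.000491) with both probes called. Ercc5, the XPG endonuclease gene of nucleotide excision repair, read 0.05, 0.12, 0.09 and -0.01 in normoxia and 0.67, 0.73, 0.65 and 0.65 in hyperoxia, a rise of 1.53-fold (limma adjusted p = 9.95e-05). Both groups of Ercc5 were tight. Ddias, an anti-apoptotic gene induced by DNA damage, rose by 1.21 ± 0.13 (limma adjusted p = 0.000372). Other repair targets gave no call: Ddb2 was at -0.12 ± 0.16, Xpc at -0.06 ± 0.08 and Rrm2b at -0.14 ± 0.12. Outside the lists Rev1, the translesion transferase gene, rose by 0.45 ± 0.07, a call lost in 2 of the 8 comparisons that left out 1 array. Rnf169, whose product binds ubiquitinated chromatin at DNA breaks, rose by 0.67 ± 0.07 (limma adjusted p = 0.000372).

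Among targets of metabolism and secretion 4 of 27 rose, beside 0.236% of all genes, with a median of 0.27. Inka2, which encodes an inhibitor of the kinase PAK4, read -3.20, -2.70, -3.01 and -2.99 in normoxia and -1.59, -0.83, -1.17 and -1.04 in hyperoxia. It had the largest rise of the p53 lists at 3.53-fold (log2 1.82 ± 0.16, limma adjusted p = 9.95e-05), with both probes called. Slc19a2, a thiamine transporter gene, read 1.35, 1.73, 1.57 and 1.58 in normoxia and 2.84, 2.85, 3.07 and 2.50 in hyperoxia, a rise of 2.39-fold (limma adjusted p = 0.000161). Gdf15, whose product is secreted under stress, read -0.17, 0.11, -0.05 and -0.11 in normoxia and 0.84, 1.14, 1.57 and 1.11 in hyperoxia, a rise of 2.33-fold (limma adjusted p = 0.000745). In each of these genes the groups were clearly apart. Ddit4l, which encodes a negative regulator of mTOR signalling, rose by 1.01 ± 0.13. Sesn2, a sestrin gene, was at 0.28 ± 0.06 with no overlap (limma adjusted p = 0.0781), whereas Sesn1 was at -0.02 ± 0.12 and Tigar at 0.01 ± 0.08.

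The promoter windows of the risers were searched for a p53 response element, here 2 adjacent decamers of the p53 motif, 20 bases in all, with the C and G of each core kept and at most 2 mismatches elsewhere. RefSeq windows (GRCm38.p6, 250 bases before to 50 after a start) were found for 41 of the 60 risers, 15 of the 23 lower genes and 27025 genes in all. A match was found in 4 of the 41 risers (9.76%), 0 of the 15 lower genes and 0.392% of all genes. These 4 promoters are shown because they are the risers' windows with a match. The 200 bases before the start are printed in the direction of the gene, with the match in capitals. The Cdkn1a window is chr17:29090779-29090978 (plus strand), Ccng1 chr11:40755287-40755486 (minus strand) and Zfp365 chr10:67912663-67912862 (minus strand). For Gtse1 the match spans a start, at chr15:85859945-85859964 (plus strand), and only the match is printed. Cdkn1a, Ccng1 and Gtse1 differ from the motif at 1 base and Zfp365 at 2.
Cdkn1a: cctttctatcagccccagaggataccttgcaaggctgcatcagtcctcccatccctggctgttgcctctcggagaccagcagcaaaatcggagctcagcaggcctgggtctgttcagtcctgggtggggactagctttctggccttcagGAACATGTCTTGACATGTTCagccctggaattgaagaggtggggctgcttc
Ccng1: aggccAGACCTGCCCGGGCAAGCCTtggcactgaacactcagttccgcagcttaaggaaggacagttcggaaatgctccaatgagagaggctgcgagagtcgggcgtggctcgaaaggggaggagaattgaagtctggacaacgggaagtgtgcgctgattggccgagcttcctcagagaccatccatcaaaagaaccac
Zfp365: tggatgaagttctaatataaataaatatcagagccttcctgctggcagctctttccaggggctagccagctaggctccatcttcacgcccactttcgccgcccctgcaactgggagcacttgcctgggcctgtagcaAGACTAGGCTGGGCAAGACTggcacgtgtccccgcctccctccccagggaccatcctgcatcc
Gtse1: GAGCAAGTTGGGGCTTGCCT
Counted from a start, the Cdkn1a match lies at positions -51 to -32, the Zfp365 match at -63 to -44 and the Ccng1 match at -195 to -176. Zfp365, a zinc finger gene tied to genome stability that is on none of the p53 lists, read 0.28, 0.46, -0.15 and -0.11 in normoxia and 1.02, 0.96, 0.83 and 0.65 in hyperoxia, a rise of 1.68-fold (limma adjusted p = 0.0225). Its call was lost in 4 of the 8 comparisons that left out 1 array. A match is a description of letters, not of binding, and the windows leave out distant elements.

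Outside the gene lists 38 of the 60 risers remained, 25 of them with a RefSeq symbol. Several encode regulators of transcription, RNA or signalling. Foxo3, a forkhead factor gene of stress resistance, read -2.47, -2.40, -2.48 and -2.39 in normoxia and -1.77, -1.67, -1.76 and -1.78 in hyperoxia, with hardly any scatter, a rise of 1.61-fold (limma adjusted p = 0.000348). A second Foxo3 probe was at 0.02 and was not called. Ascl2, a basic helix-loop-helix factor gene, rose by 0.73 ± 0.13, and Mybl1, a MYB family gene, by 0.96 ± 0.17. Rbm38, whose product stabilises Cdkn1a mRNA, rose by 0.70 ± 0.13. The ligand genes Tnfsf9 (4-1BB ligand) and Artn (artemin) rose by 0.74 ± 0.09 and 0.85 ± 0.15. Prkag3, an AMP-activated kinase subunit gene, rose by 0.85 ± 0.12, Dffb, the gene of the caspase-activated DNase, by 0.51 ± 0.08, and Pvt1, a long noncoding RNA gene beside Myc, by 0.59 ± 0.11. A second Pvt1 probe was at 0.21 and was not called. Among the 8 comparisons that left out 1 array, the call was lost in 7 for Ascl2, in 6 for Pvt1 and in 5 for Mybl1, Rbm38 and Artn. With the replicate number as a block Ascl2, Rbm38 and Pvt1 also lost it.

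Mab21l3 read -3.44, -3.65, -3.20 and -3.62 in normoxia and -2.26, -2.05, -1.89 and -2.25 in hyperoxia, a rise of 2.57-fold (limma adjusted p = 0.0025), the second largest among genes with a RefSeq symbol that were well above background on all 8 arrays. The glycosyltransferase genes Ggta1 and B3gnt4 rose by 0.93 ± 0.15 and 0.56 ± 0.10, by calls that were lost in 3 and 6 of the 8 comparisons that left out 1 array. Ano3, a channel family gene, was well above background on no normoxia array and on 1 hyperoxia array, and was at least 1.14-fold higher (limma adjusted p = 0.0174), a call lost in 4 of those comparisons. It passed the filter for testing only through its 24 h arrays. Dennd2c rose by 0.69 ± 0.09 and Lzic by 0.33 ± 0.06, the latter with the call lost in 6. In all of these the 4 hyperoxia arrays lay above the 4 normoxia arrays. For Ano3 that gap and its p rest mostly on signals not well above background and add no support for a rise.

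Some called genes lay beside each other on the chromosome. On the array's mm9 coordinates 82 called probes have a position, and 13 of them stand in 5 groups with gaps of at most 200 kb. A set of 4 risers, with the array names A_55_P2025645, Gm13286, A_55_P2116341 and Gm13275, lie on the plus strand within 39.6 kb of chromosome 4, from 88401523 to 88441138. Gm13275 read 0.42, 0.45, 0.31 and 0.35 in normoxia and 1.07, 0.84, 0.96 and 0.82 in hyperoxia, and the others rose by 0.39 to 0.59 on the log2 scale. Among the 8 comparisons that left out 1 array, the call was lost in 6 for Gm13286, in 2 for A_55_P2025645 and in 1 for A_55_P2116341. With the replicate number as a block Gm13286 and A_55_P2116341 also lost it. Whether the probes of these 4 risers read copies of a family was not tested. Zmat3 and the long noncoding RNA gene 4930429B21Rik lie 32.4 kb apart on opposite strands of chromosome 3, and the latter rose by 0.65 ± 0.10. Among the lower genes H1f5, H2ac22 and ENSMUST00000081342 lie within 30.8 kb of chromosome 13, from 21871923 to 21902754, and Atf7ip and ENSMUST00000066689 within 3.7 kb of chromosome 6.

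Histone genes were among the lower genes. Linker histones bind the DNA between nucleosomes, and 2 of 10 tested fell, beside 0.0905% of all genes. H1f5 read 2.24, 2.41, 2.50 and 2.28 in normoxia and 1.29, 1.39, 1.46 and 1.23 in hyperoxia, a fall of 2.02-fold (log2 -1.01 ± 0.13, limma adjusted p = 0.00212). H1f1 read -1.21, -1.05, -1.33 and -1.28 in normoxia and -2.09, -2.04, -2.20 and -2.00 in hyperoxia, a fall of 1.82-fold (log2 -0.87 ± 0.09, limma adjusted p = 0.000528). The arrays of each group lay close together and the groups did not overlap. Both calls held with each array left out in turn and from the 8 arrays of 6 h alone. H1f4 was at -0.50 ± 0.18 with no overlap but was not called (limma adjusted p = 0.467). H1f2 was at 0.02 ± 0.09 and H1f3 at 0.16 ± 0.40, and the replication-independent H1f0 at -0.11 ± 0.24.

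Of 39 clustered core histone genes 2 fell, beside the same 0.0905%, with a median of -0.18, and 31 lay below 0. Both encode histone H2A: H2ac11 read 6.92, 6.98, 6.92 and 6.87 in normoxia and 6.33, 6.36, 6.45 and 6.38 in hyperoxia, and H2ac22 read 6.45, 6.64, 6.50 and 6.48 and 5.84, 5.94, 6.03 and 5.98. They fell by 1.46-fold and 1.48-fold (limma adjusted p = 0.0126 and 0.0236). The call of H2ac11 held with each array left out in turn, whereas that of H2ac22 was lost in 7 of the 8 comparisons and from the 8 arrays of 6 h alone (limma adjusted p = 0.0506). In 16 of the 39 the hyperoxia arrays lay wholly below the normoxia arrays, as they did in 2% of all genes, and in none above. Core histone genes are near-identical copies of one another, so a probe may read several of them and these genes are not independent. H2ax, the gene of the H2A variant that is phosphorylated at DNA breaks, was at -0.54 ± 0.11 with no overlap (limma adjusted p = 0.074).

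The promoters of both linker histones and of the mitotic genes Bub1b and Aspm are shown because they carry the CCAAT box, bound by the factor NF-Y, that is known from cell cycle promoters. The printed windows are chr13:21780626-21780825 (minus strand), chr13:23763468-23763667 (plus strand), chr2:118598011-118598210 (plus strand) and chr1:139454573-139454772 (plus strand), RefSeq, GRCm38.p6, the 200 bases before a start in the direction of the gene. Capitals mark CCAAT on either strand (ATTGG is its reverse complement) and, in the histones only, AAACACA, the element typical of linker histone promoters, and the TATAAA box.
H1f5: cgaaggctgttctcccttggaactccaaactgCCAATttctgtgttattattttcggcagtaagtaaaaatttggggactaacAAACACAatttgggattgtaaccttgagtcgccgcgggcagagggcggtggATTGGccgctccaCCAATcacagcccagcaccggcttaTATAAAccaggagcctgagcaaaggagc
H1f1: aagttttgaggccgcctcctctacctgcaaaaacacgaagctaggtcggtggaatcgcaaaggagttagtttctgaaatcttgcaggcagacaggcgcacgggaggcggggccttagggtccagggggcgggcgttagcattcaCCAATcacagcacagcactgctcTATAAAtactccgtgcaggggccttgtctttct
Bub1b: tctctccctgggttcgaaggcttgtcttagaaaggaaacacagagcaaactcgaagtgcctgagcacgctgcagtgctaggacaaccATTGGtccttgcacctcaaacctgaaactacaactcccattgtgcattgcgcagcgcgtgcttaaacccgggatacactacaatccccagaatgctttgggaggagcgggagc
Aspm: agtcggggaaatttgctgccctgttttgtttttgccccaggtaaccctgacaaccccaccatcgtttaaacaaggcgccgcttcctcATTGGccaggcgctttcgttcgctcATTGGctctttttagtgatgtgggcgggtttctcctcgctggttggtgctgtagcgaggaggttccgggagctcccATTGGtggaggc
H1f5 and Aspm carry 3 CCAAT matches each, H1f1 and Bub1b 1 each. Of the 2 linker histones only H1f5 carries AAACACA in the printed bases. The same letters also occur, unmarked, in the printed bases of Bub1b. Over the window of 250 bases before to 50 after a start, CCAAT was found on either strand in 12 of 15 lower genes (80%), 17 of 41 risers (41.5%) and 41.1% of all genes. TTTGAA, the core of the cell cycle homology region, was found in 6 of the 15 lower genes (40%), 17.1% of the risers and 20.2% of all genes. AAACACA was found in 2 of the 15 lower genes (13.3%), 4.88% of the risers and 8.22% of all genes. These matches were counted and not tested, and the lower genes with a window include histones of related sequence.

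**Figure D3:**
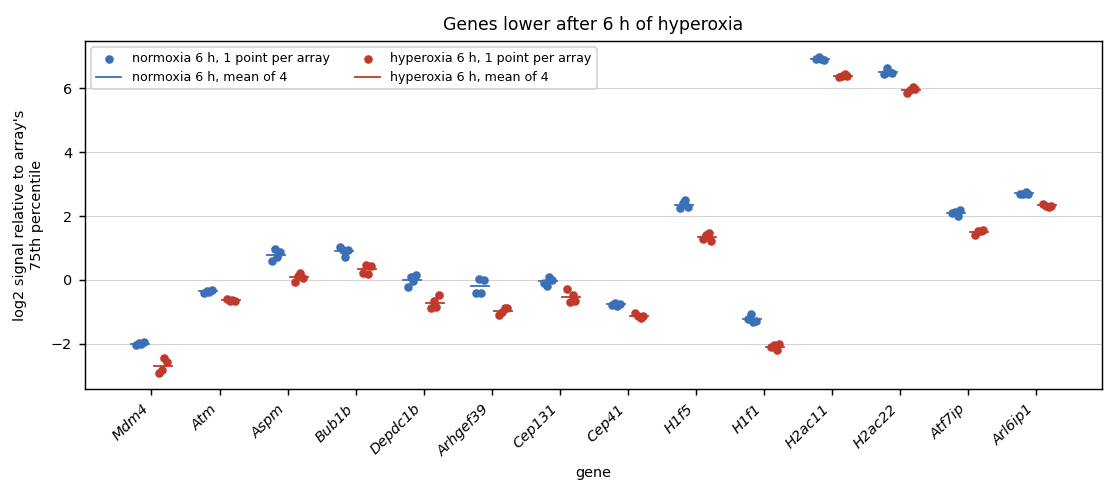
Log2 signal, scaled by the array's 75th percentile (y axis) of the lower genes drawn, 1 point per array and a line at the mean of 4, normoxia in blue and hyperoxia in red. In each gene the 4 hyperoxia arrays sit below the 4 normoxia arrays, with H1f5 and H1f1 furthest apart among the genes drawn; levels are not comparable between genes.

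Of 72 tested genes of mitosis 4 fell and 0 rose, beside 0.0905% and 0.236% of all genes, with a median of -0.28. Aspm, which organises spindle poles, read 0.58, 0.97, 0.70 and 0.89 in normoxia and -0.07, 0.11, 0.23 and 0.07 in hyperoxia, a fall of 1.62-fold (limma adjusted p = 0.0135). Bub1b, the spindle checkpoint kinase gene, read 1.03, 0.93, 0.72 and 0.94 in normoxia and 0.22, 0.47, 0.19 and 0.43 in hyperoxia, a fall of 1.49-fold (limma adjusted p = 0.0265). Arhgef39 and Depdc1b, both expressed with the mitotic programme, fell by 1.70-fold and 1.62-fold (limma adjusted p = 0.0126 and 0.0317). None of these 4 calls held in all 8 comparisons that left out 1 array, and none was made from the 8 arrays of 6 h alone. In 22 of the 72 the hyperoxia arrays lay wholly below the normoxia arrays, beside 2% of all genes, and 67 of the 72 values were below 0. Plk1, the polo-like kinase gene, was at -0.60 ± 0.13 with no overlap (limma adjusted p = 0.0864), Aurka at -0.49 ± 0.12, Ccnb1 at -0.40 ± 0.14 and the proliferation marker Mki67 at -0.28 ± 0.16. Genes of DNA replication gave other values: 0 of 35 were called, the median was -0.01, and 1 had groups without overlap.

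Other lower genes act at centrosomes and chromatin. The centrosomal genes Cep131 and Cep41 fell 1.41-fold and 1.28-fold (limma adjusted p = 0.0236 and 0.0152). Their calls were lost in 5 and 4 of the 8 comparisons that left out 1 array, and with the replicate number as a block (limma adjusted p = 0.0654 and 0.0553). Atf7ip, whose product protects the histone methyltransferase SETDB1, read 2.10, 2.13, 2.00 and 2.18 in normoxia and 1.41, 1.54, 1.52 and 1.55 in hyperoxia, a fall of 1.51-fold (limma adjusted p = 0.00203). Its call held under 18 other settings and was lost when the replicate number was a block within the 8 arrays of 6 h. Atm, the gene of the kinase upstream of p53, read -0.40, -0.33, -0.37 and -0.31 in normoxia and -0.59, -0.66, -0.61 and -0.64 in hyperoxia. The groups were tight and apart, but the fall was small at 1.21-fold (limma adjusted p = 0.037), its second probe was at -0.07, and the call was lost in 7 of the 8 comparisons that left out 1 array. Atm was the 1 called gene of 23 on the list of DNA damage checkpoint genes, beside 0.0905% of all genes lower. The median of that list was -0.09. The sulfotransferase gene Chst8, the membrane-shaping gene Arl6ip1 and the RNase P subunit gene Rpp38 fell by 1.37-fold, 1.30-fold and 1.21-fold, with the call lost in 7, 3 and 5 of those comparisons.

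Stress programmes other than that of p53 gave few calls at 6 h. NRF2 is the factor that is freed under oxidative stress and switches on antioxidant genes, and 0 of 36 of its targets were called, although 34 lay above 0 and the median was 0.16. Gclc, the catalytic subunit gene of glutathione synthesis, read 2.32, 2.67, 2.62 and 2.60 in normoxia and 2.91, 2.96, 3.19 and 2.95 in hyperoxia. These groups did not overlap, but the difference of 0.45 ± 0.10 missed the threshold (limma adjusted p = 0.0711). Srxn1, the sulfiredoxin gene, was at 0.52 ± 0.12 and Txnrd1, the thioredoxin reductase gene, at 0.33 ± 0.08, also without overlap, while Hmox1 varied widely (0.45 ± 0.91). Groups without overlap on the higher side numbered 6 of 36, beside 2.31% of all genes. Of 28 other antioxidant genes 0 were called and none had groups without overlap.

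Among genes of glycolysis and the hypoxia factor HIF 1 of 40 rose, beside 0.236% of all genes, with a median of 0.14. This was Pdk1, the kinase gene that keeps pyruvate out of mitochondria, with -0.44, -0.28, -0.32 and -0.32 in normoxia and 0.29, 0.50, 0.23 and 0.21 in hyperoxia, a rise of 1.57-fold (limma adjusted p = 0.0029). Bnip3, a mitophagy gene and HIF target, was at 0.94 ± 0.19 with no overlap (limma adjusted p = 0.0639). Vegfa was at 0.03 ± 0.13 and Hif1a at -0.04 ± 0.11, neither called. Genes of the unfolded protein response gave 0 calls of 25 and a median of -0.11, and those of the integrated stress response 0 of 29 and -0.14. In 5 genes of each of these lists the hyperoxia arrays lay wholly below the normoxia arrays, beside 2% of all genes. They lay wholly above in 0 and 2. Hsph1, a heat shock co-chaperone gene, was at -0.42 ± 0.09 with no overlap (limma adjusted p = 0.0718). Interferon-stimulated genes (0 of 30), inflammatory cytokines (0 of 26), surfactant and type II genes (0 of 25) and type I genes (0 of 13) gave no call. On the list of transitional alveolar epithelium 3 of 25 rose, beside 0.236% of all genes. These were Mdm2, Cdkn1a and Gdf15, which the p53 lists also hold. The keratin genes Krt8 and Krt19 of that list were at 0.01 ± 0.11 and 0.02 ± 0.17. A p that misses the threshold does not show that these genes were unchanged.

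**Figure D4:**
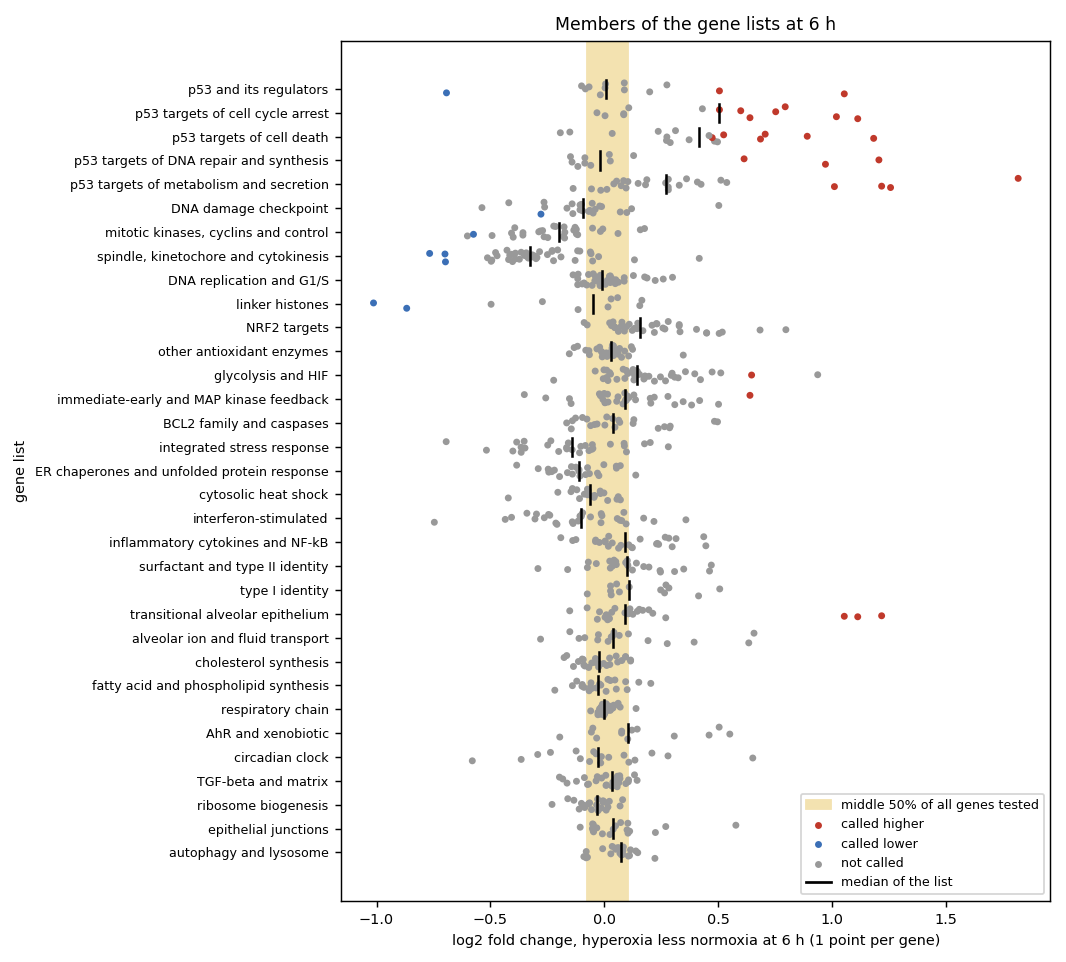
Log2 fold change at 6 h (hyperoxia less normoxia, x axis) of every tested member of the gene lists (y axis), 1 point per gene, red where it rose, blue where it fell and grey where it was not called, with the list's median as a black line; the band spans the middle 50% of all genes tested. Red points gather in the p53 lists (21 genes), and the medians of the mitosis lists (-0.20 and -0.33) lie furthest below the band. The medians of the integrated stress, unfolded protein, interferon and DNA damage checkpoint lists also lie below it.

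A few called probes were dim in one group and had large, scattered values. Each gene or probe named here passed the filter for testing only through the group where it was high. Its p therefore rests partly on signals not well above background and adds no support for the difference. Ms4a20, a member of a family of membrane-spanning genes, read -3.31, -2.91, -3.99 and -4.41 in normoxia and -7.62, -8.22, -8.06 and -8.26 in hyperoxia. It was well above background on the 4 normoxia arrays and on none of the hyperoxia arrays, so it was at least 4.65-fold lower (limma adjusted p = 0.00219). AK143342, a cDNA with a probe on chromosome 14, from 52099645 to 52099704 on the minus strand of mm9, read -7.70, -6.00, -8.04 and -7.64 in normoxia and -2.47, -4.44, -4.12 and -2.99 in hyperoxia. It was well above background on all 4 hyperoxia arrays and on no normoxia array, and was at least 5.71-fold higher (limma adjusted p = 0.00219). The probe A_55_P1986366 was at least 2.06-fold higher (limma adjusted p = 0.0105). Kbtbd12, a kelch family gene, read -6.87, -6.50, -5.59 and -6.44 in normoxia, where 1 array was well above background, and -3.16, -5.27, -4.38 and -4.47 in hyperoxia, where all 4 were (limma adjusted p = 0.0258). The SD over the 4 arrays was 0.91 in normoxia and 0.93 in hyperoxia for AK143342, and 0.54 and 0.87 for Kbtbd12, whose call was lost in 4 of the 8 comparisons that left out 1 array.

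The genes that moved at 6 h were then read at 24 h, where hyperoxia and normoxia arrays stood on another slide, so time and slide cannot be told apart. At 24 h 15.5% of all genes were higher in hyperoxia and 12.8% lower, and the difference between the hyperoxia effects at the 2 times was called for 12.3%. The 6 h values that chose these genes also enter that difference. Of the 60 risers 53 were also higher at 24 h and 0 were lower, and their median log2 fold change was 0.73 at 6 h and 1.46 at 24 h. By the test of the difference between the times, 39 of them were larger at 24 h and 6 were smaller or opposite. Mdm2 went from 1.05 ± 0.07 to 1.91 ± 0.07 (limma adjusted p of the difference = 3.8e-05) and Pidd1 from 0.89 ± 0.11 to 2.50 ± 0.11 (adjusted p = 7.36e-06). Other early targets showed no called difference: Gdf15 went from 1.22 ± 0.14 to 1.52 ± 0.14 (adjusted p = 0.371), Ddias to 1.60 ± 0.13 (adjusted p = 0.176) and Aen to 0.53 ± 0.06 (adjusted p = 0.72).

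Of the 23 lower genes 20 were lower at 24 h, 1 was higher and 2 were not called, and the median went from -0.61 to -1.28. Mitotic genes had far lower values at 24 h: Depdc1b went from -0.70 ± 0.13 to -3.35 ± 0.13 (limma adjusted p of the difference = 8.14e-07) and Aspm to -3.06 ± 0.11 (adjusted p = 7.76e-07). H1f5 went to -3.38 ± 0.13 (adjusted p = 1.6e-06). Mdm4, in contrast, stood at -0.69 ± 0.09 and -0.64 ± 0.09 (difference 0.05 ± 0.13, adjusted p = 0.852), and Atm at -0.28 ± 0.05 and -0.48 ± 0.05 (adjusted p = 0.0898). Pdk1 moved the other way, from 0.65 ± 0.09 at 6 h to -0.22 ± 0.09 at 24 h (difference -0.86 ± 0.12, adjusted p = 0.000375), and its 24 h value was not called.

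**Figure D5:**
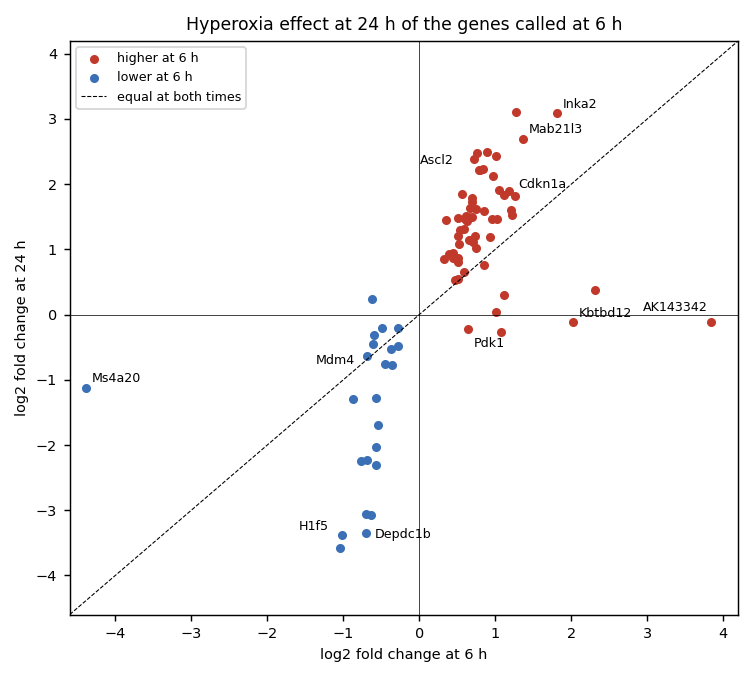
Log2 fold change of hyperoxia against normoxia at 24 h (y axis) against that at 6 h (x axis) for the 83 genes called at 6 h, risers in red and lower genes in blue, with a dashed line where both are equal. Most points lie further from 0 at 24 h, with medians of 1.46 and -1.28, whereas Pdk1 lies near 0 on the y axis. AK143342, Kbtbd12, Ms4a20 and A_55_P1986366 were not well above background on any hyperoxia array of 24 h. The same holds for chr3:84616804-84617383_R on the normoxia arrays of 24 h, and for Ano3 and chr19:56580315-56592490_R on those of 6 h. The places of all these points are not measured sizes.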

How the data were processed

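The authors deposited a scanner file for each array, written by Agilent Feature Extraction (version 10.7.3.1 per the submitters' processing notes). The intensity used is the processed signal, from which the scanner software had already removed background and spatial trends, per the file headers. The authors also deposited a table of log2 values, used as an alternative only; how it was normalized is not given in the sources used here.

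Outlier-marked spots were left out where a probe had others, spots were averaged per probe (55681 probes), and log2 signals were shifted to a 75th percentile of 0. Probes were named through RefSeq accessions or symbols (GRCm38.p6, names only). The brightest probe stood for a gene, tested if at least 3 of 4 arrays of any group were well above background (25401 genes). R 4.3.3 with limma 3.58.1 fitted 1 mean per group over all 16 arrays (12 residual degrees of freedom), with two-sided moderated tests and Benjamini-Hochberg adjustment over all genes at 0.05. The script was tested on simulated data. Precision is limited by the number of arrays.

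The comparison, members and gene lists were chosen with earlier results of these data known. Named genes are the 20 largest rises and falls with a RefSeq symbol, called list members, the 2 highest and 2 lowest of each list, members of the p53, histone, mitosis, NRF2 and glycolysis lists, the brightest markers, and called genes that differed at 24 h; others, among them the remaining genes named by array or gene name and the neighbouring genes, were chosen after their values were seen. Some genes that the rule names are not reported here. Alternatives varied the scaling, background correction, filter, probe choice, spread, array weights, replicate block and the arrays left out.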

Additional observations from a re-analysis of the deposited data

Results flagged for a closer look

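Single arrays stood apart from the other 3 of their group in 4 of the called genes examined, by a test for outliers that marks about 1 in 20 groups by chance. Hyperoxia replicate 3 was the one in 3 of them: Tnfrsf10b read 3.60 there, Pidd1 1.97 and Lzic 1.82. Normoxia replicate 2 read -1.84 for the probe A_55_P2025645. All 4 genes were called higher in hyperoxia with groups that did not overlap. Both groups of many genes were scanned, so some marks arise by chance. Not every called gene was covered: ENSMUST00000066689 read 0.04 on hyperoxia replicate 3 and -0.30 to -0.27 on the other hyperoxia arrays. Pvt1 read 0.98 on hyperoxia replicate 3 and 0.37 to 0.46 on the others, and its log2 change without that array was 0.46.

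The hyperoxia effect at 24 h differed from that at 6 h in 60 of the 83 called genes by limma's test of the difference, beside 12.3% of all genes. In 8 of them the effect at 24 h was smaller than at 6 h or of opposite sign, and values here are the log2 effect at 24 h less that at 6 h. For AK143342, A_55_P1986366, Ms4a20 and Kbtbd12 no hyperoxia array of 24 h was well above background, for the transcript on chromosome 19 no normoxia array of 6 h, and for that on chromosome 3 no normoxia array of 24 h, so the values of these 6 come from signals partly below background and are not measured sizes. Pdk1, the pyruvate dehydrogenase kinase gene, was at -0.86 (limma adjusted p = 0.000375) and Kbtbd12 at -2.15 (adjusted p = 0.0134). Ms4a20, which was lower at 6 h, was at 3.27 (adjusted p = 0.0162), and its fall at 24 h was not called. The cDNA AK143342 was at -3.96 (adjusted p = 0.00213) and the probe A_55_P1986366 at -1.94 (adjusted p = 0.023). The noncoding transcripts named on the array by their intervals, chr10:33707021-33709881_R and chr19:56580315-56592490_R, were at -1.34 and -0.96 (adjusted p = 0.00748 and 0.0336). Their calls at 6 h were lost in 6 and 7 of the 8 comparisons that left out 1 array. The transcript on chromosome 19 passed the filter for testing only through the 6 h hyperoxia group, where it was high. AK143342, A_55_P1986366, Ms4a20 and Kbtbd12 likewise passed only through the group where each was high. The p of each of them adds no support for a difference. The transcript chr3:84616804-84617383_R, lower at 6 h, was at 0.86 (adjusted p = 0.000268) and was called higher at 24 h.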

How the results depend on the processing

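No gene called at 6 h changed sign under any of the 18 settings listed at the start or the added one. In 25 of the 83 genes the call held in all 18, among them Mdm2, Inka2, Slc19a2, Gdf15, Ddias, Gtse1, Polk, Phlda3, Ercc5, H1f1, H1f5 and Atf7ip, and 40 were called with each array left out in turn. Leaving out 1 array gave 33 to 132 higher and 11 to 61 lower genes, against 60 and 23: without normoxia replicate 4, 33 and 11; without hyperoxia replicate 3, 132 and 61; without normoxia replicate 1, 37 higher; and without hyperoxia replicate 4, 13 lower. Lower genes numbered 39 with quantile normalization, 37 with normexp background correction, 37 in the authors' deposited log2 table and 35 with a trended prior variance. With array weights, where hyperoxia replicate 3 had the lowest weight, 303 genes were higher and 263 lower. The 8 arrays of 6 h alone gave 21 and 8. With the replicate number as a block 66 were higher and 28 lower, of which 44 and 15 were among the 60 and 23. Replicate numbers are also the columns of the slide. Residuals of same-numbered arrays of 6 h correlated at 0.25, 0.25, 0.35 and 0.09 between oxygen levels. Each hyperoxia array correlated best with the normoxia array of its own number, whereas normoxia replicate 4 correlated best with hyperoxia replicate 3 (0.10). Since the last of the same-numbered values was under the limit of 0.1 set for all of them, the numbers were not taken as pairs. Pairing and slide column cannot be told apart. The block within the 8 arrays, an alternative chosen after seeing the data, gave 6 and 3. The median of the cholesterol synthesis genes, -0.025, was -0.048 to 0.020 with 1 array left out, and 0.010 and 0.020 without normoxia replicate 1 and hyperoxia replicate 3. The cause of these differences was not tested. Oxygen level and slide row cannot be told apart, the labels do not say whether arrays are separate animals, and dim probes give only bounds.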
